A study of Mus musculus with 2 samples.

Results

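The genes described here encode the proteins of the cytosolic ribosome. They were taken by symbol: Rps or Rpl with a number and an optional ending, together with Rplp0, Rplp1, Rplp2 and Rpsa. Of 33696 features in the deposited tables, 83 symbols matched and 82 had at least 100 UMIs (unique molecular identifiers, each counting 1 captured messenger) over both libraries. The symbol left out was Rpl10l, with 2 UMIs. The 82 members comprise 77 core genes, 46 for the large subunit and 31 for the small subunit, and 5 paralogs: Rpl22l1, Rps27l, Rpl7l1, Rpl39l and Rpl3l. Fau, which encodes a ribosomal protein as a fusion, and Rpl36al fall outside the symbol rule and are given separately.

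The series holds 2 droplet single-cell libraries of wounded back skin from wild type C57BL/6 male mice. The aged library came from mice of 24 months and the young library from mice of 2 months. In both, full-thickness wounds of 10 mm were taken at day 6 and the cells of several mice were pooled. With 1 library per age there is no replicate of an age, so no test of age was possible, and intervals below are 95% exact intervals that cover counting error only.

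A ribosome is built from ribosomal RNA and one copy of almost every core protein, so cells keep the messengers of these genes at similar levels. Many of these messengers begin with a short run of pyrimidines, the terminal oligopyrimidine tract, through which their translation follows nutrient and growth signals. Growing and protein-secreting cells devote much of their messenger pool to them, and mature neutrophils, which hold few ribosomes, devote little.

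The start sites of 6 small-subunit and large-subunit genes are shown because they include members from both ends of the order of aged/young ratios given below. Each line holds 30 bases on the gene's own strand, of which the first 10 lie before the annotated start, and capitals mark the pyrimidine run. The sequences are RefSeq's, on GRCm38.p6: Rps27 at chr3:90213629-90213658 (minus strand), Rps21 at chr2:180257369-180257398 (plus), Rpl35 at chr2:39005112-39005141 (minus), Rpl38 at chr11:114668570-114668599 (plus), Rps6 at chr4:86857348-86857377 (minus) and Rps18 at chr17:33955646-33955675 (minus).
Rps27: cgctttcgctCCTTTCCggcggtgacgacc
Rps21: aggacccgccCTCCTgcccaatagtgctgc
Rpl35: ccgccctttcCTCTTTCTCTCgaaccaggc
Rpl38: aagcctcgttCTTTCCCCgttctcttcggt
Rps6: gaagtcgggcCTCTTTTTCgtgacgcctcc
Rps18: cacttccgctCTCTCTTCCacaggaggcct

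The motif searched was a C at the annotated first base followed by at least 4 bases that were each C or T, on the gene's strand only. RefSeq's promoter table matched 62 of the 82 members, and 13 of these 62 (20.97%) held the motif, against 813 of all 27025 genes in that table (3.01%), where a gene with several annotated starts counted if any start held it. The 13 were Rps6, Rps10, Rps15a, Rps18, Rps21, Rps27, Rpl14, Rpl15, Rpl28, Rpl35, Rpl35a, Rpl38 and Rplp2. Rps21 has another annotated start, at chr2:180257439-180257468 in the same 30-base window, without the run. A run that starts 1 base away from the annotated start is missed by this reading, so a gene without a match is only one whose annotated first bases do not hold these letters.

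The deposited tables held 4379 aged and 4932 young barcodes, of which 4210 and 4661 were kept, with medians of 13776.5 UMIs per cell in aged and 15566 in young cells. The libraries shared 3 barcodes. Cells were assigned to types by gates on fixed marker lists, which placed 81.6% of aged and 84.0% of young cells. The 3 gates with at least 50 cells in each library, for which ratios are given, were fibroblast (1391 aged and 1501 young cells), macrophage/monocyte (1072 and 664) and neutrophil (832 and 1307). The T/NK (35 aged and 281 young), endothelial (46 and 53) and dendritic (43 and 17) gates are given as levels, apart from a correlation with coding length. Every marker of its own list was detected in each of the fibroblast, macrophage/monocyte and neutrophil gates in both libraries.

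Ribosomal protein messengers made up 11.3% of all UMIs in the aged library (12192932 UMIs) and 11.4% in the young library (12715441 UMIs). The aged/young ratio of this share was 0.992 (0.991 to 0.993). The median over single cells was 8.51% in aged and 9.35% in young cells, so the libraries were closer by the pooled share, to which fibroblasts gave 72692028 of 107577591 aged and 67881650 of 111268003 young UMIs. Under TMM scaling, which shifts every log2 ratio over all cells by -0.11, the ratio was 0.918.

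The share differed more between cell types than between libraries. T/NK cells held 18.6% in the aged and 16.2% in the young library, dendritic cells 13.4% and 17.9%, and endothelial cells 12.97% and 14.1%. Fibroblasts held 12.4% and 12.7%, macrophages and monocytes 8.22% and 9.58%, and neutrophils 1.53% and 2.20%. Of these 6 gates the highest was T/NK in the aged and dendritic in the young library. Neutrophils were lowest of the 6 gates in each library, and their 90th percentile over cells, 2.57% in aged and 3.19% in young cells, lay below the 10th percentile of macrophages, 4.73% and 5.33%. Neighbours among the other gates overlapped: the interquartile range of fibroblasts was 9.82% to 14.6% in aged and 10.1% to 14.9% in young cells, and that of endothelial cells 9.34% to 14.7% and 11.2% to 16.8%. Outside them, erythroid cells, 2 aged and 15 young, held 0.966% and 0.7001%, and gates of as few cells also lay above, with B/plasma (5 aged cells) at 19.8% in the aged and keratinocyte (10 young cells) at 25.2% in the young library.

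**Figure D1:**
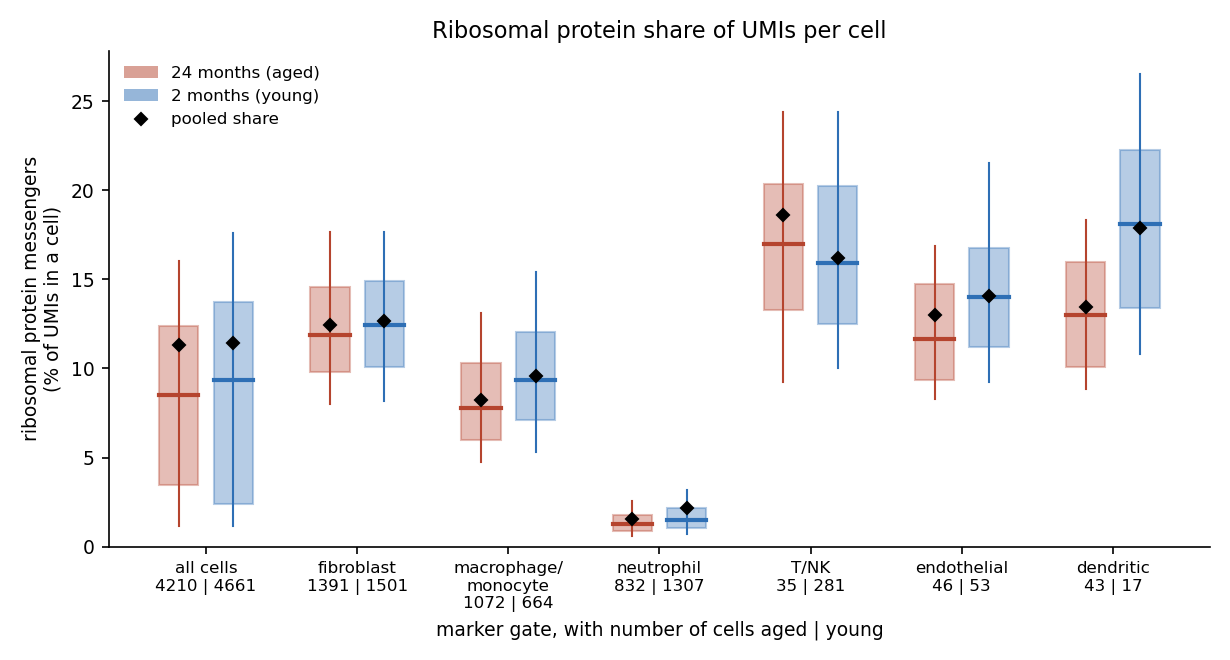
Share of a cell's UMIs that came from the 82 genes, by marker gate, in aged (left of each pair) and young cells. Boxes span the 25th to 75th percentile over cells with a line at the median, whiskers the 10th to 90th percentile, and diamonds are pooled shares; neutrophils lie at pooled shares of 1.53% and 2.20%, below the other 5 gates shown.

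Within the fibroblast gate the pooled share was 0.980 times the young share in the aged library (0.979 to 0.981). Among macrophages and monocytes it was 0.858 (0.856 to 0.861), and the medians over cells, 7.80% in aged and 9.37% in young cells, differed in the same direction. Among macrophages the share was lower in aged cells in each of 4 classes of cells by depth. The classes were cut within each library and are not matched in depth: the shallowest had medians of 4337.5 UMIs in aged and 7996 in young cells, and the deepest 24987.5 and 28411. The share was 8.58% in aged against 10.4% in young cells in the shallowest class, and 7.77% against 8.70% in the deepest. With every cell thinned to 2000 UMIs the aged/young ratio of the share was 0.850. The summed neutrophil markers in the macrophage gate were 688 CPM (UMIs per 1000000 UMIs of the same cells) in aged and 1170 in young cells, and the summed fibroblast markers were 167 and 192. Their part in the difference was not tested.

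Among neutrophils the pooled share was 0.696 times as high in aged as in young cells (0.690 to 0.702). With a bound chosen after the values were seen, cells in which at least 5% of UMIs were ribosomal numbered 13 of 832 aged and 51 of 1307 young neutrophils. These cells held 10.7% of the gate's ribosomal protein UMIs in the aged and 33.4% in the young library. The share over the remaining cells was 1.397% in aged and 1.56% in young neutrophils. Leaving out cells picked by their high share lowers the pooled share by construction, and their part in the ratio was not tested. Without the 25% of cells with the most UMIs the ratio was 0.856, and in clusters named from the same markers, which held 1025 aged and 1423 young neutrophils, it was 0.961. The fibroblast marker list summed to 222 CPM in aged and 290 in young neutrophils, and the neutrophil list to 63317 and 94195.

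Over all cells the 77 core genes lay in a narrow band. Their mean levels of the 2 libraries ran from 686 to 3243 CPM, a 4.72-fold range with a median of 1414, and 74 of 77 were within a factor of 2 of that median. Levels here are messenger counts read at the 3' end and are not divided by length. Of the 50 most abundant genes 16 were members, of the first 100 there were 40, and of the first 200 there were 72. The small-subunit genes had a median of 1494 and the large-subunit genes of 1285 CPM.

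The highest core level was that of Rplp1, a protein of the stalk that recruits translation factors to the large subunit, with 3208 CPM in aged and 3277 in young cells. Also among the highest were Rpl13 (2831 and 2618), Rps24 (2547 and 2733) and Rps12 (2337 and 2216). The lowest core level was that of Rpl4, a protein that lines the exit tunnel, with 701 in aged and 672 in young cells. Next above it were Rps18, Rpl27, Rpl3 and Rpl36a. Below all core genes came the paralogs, in the order Rpl22l1 (457 in aged and 452 in young cells), Rps27l (228 and 221), Rpl7l1 (46.1 and 40.7), Rpl39l (29.6 and 35.1) and Rpl3l (0.688 and 1.11).

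**Figure D2:**
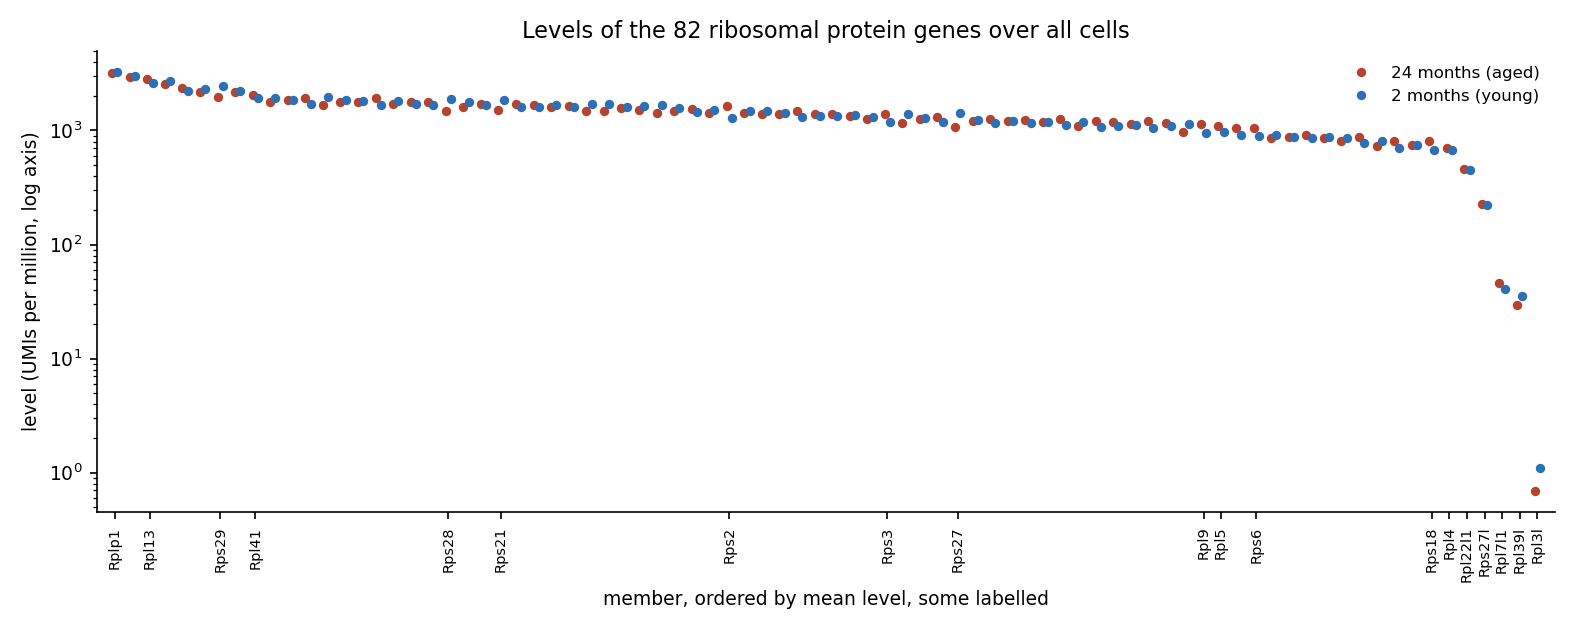
Level of each of the 82 genes over all cells (CPM, log axis) in aged and young cells, ordered by the mean of both, with some genes of the text labelled. The core genes run from 3243 down to 686, and the 5 paralogs stand at the low end, with Rpl3l near 1.

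Some deposited entries outside the symbol rule carry a member's name with an added ending, and the read counting could split messengers among near-identical ones. The largest was Rpl36al, a gene entry not named as a pseudogene, with 42371 aged and 39991 young UMIs, or 49.1% of those of Rpl36a. Rpl10-ps3, Rps27rt, Rpl9-ps6, Rps18-ps4, Rps18-ps6 and Rps23rg1 held from 0.00251% to 1.29% of their parents' UMIs, and Rplp2-ps1 held 0. Adding Rpl36al to Rpl36a brought its aged/young ratio to 0.964, against 0.905 for Rpl36a alone. Adding the smaller entries left Rps27 at an aged/young ratio of 0.757, Rps18 at 1.21 and Rpl9 at 1.20. In the GENCODE M21 annotation 34 of the 82 members overlapped another gene on the same strand.

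Gene by gene over all cells, 44 of 82 ratios were below 1, where 33.7% of all genes were, and 62 under TMM scaling, where 48.7% were. By counting alone, 41 of 82 aged/young ratios had counting intervals below 1, where 21.2% of all genes did, and 37 had intervals above 1, where 48.6% did. The smallest ratio of a core gene was 0.755, for Rps27, and the largest was 1.29, for Rps2. Past a 1.5-fold difference 0 members were higher in aged cells and 1, Rpl3l, was lower. Among all 16022 genes with at least 100 UMIs, 7.56% were higher and 7.55% lower by that much. For Rpl3l the ratio was 0.622 (0.460 to 0.837), from 74 aged and 123 young UMIs. Neutrophils held 40 and 73 of these UMIs, and there its ratio was 1.32 (0.876 to 1.97). At a smaller difference, 25% more or 20% less in aged cells, 1 member was higher, where the share over all genes was 22.3%, and 4 were lower, where it was 13.2%. The median log2 ratio of the members was -0.01, beside 0.12 over all genes.

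The 4 core genes lowest in aged cells were all small proteins of the small subunit. Rps27, a zinc-finger protein, had 1072 CPM in aged and 1420 in young cells, a ratio of 0.755 (0.749 to 0.761). Rps28 had 1488 in aged and 1895 in young cells (ratio 0.785, 0.780 to 0.790), and Rps29 had 1948 and 2478 (ratio 0.786, 0.782 to 0.790). Rps21 had 1516 in aged and 1837 in young cells, a ratio of 0.825 (0.820 to 0.830). Next came Rpl38, Rpl35 and Rpl37a, small proteins of the large subunit, at ratios between 0.837 and 0.842.

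The core genes highest in aged cells encode larger proteins. Rps2, which lies near the channel by which the messenger enters, had 1650 CPM in aged and 1275 in young cells, a ratio of 1.29 (1.29 to 1.30). Rps18 had 811 in aged and 668 in young cells (ratio 1.21, 1.20 to 1.22), and Rpl9 had 1139 and 945 (ratio 1.21, 1.20 to 1.21). Rps3, also at the messenger entry, followed at 1390 in aged and 1180 in young cells, a ratio of 1.18 (1.17 to 1.19). Rpl7 had 1058 in aged and 908 in young cells, a ratio of 1.16 (1.15 to 1.17). Rps6, the protein phosphorylated by S6 kinase, had 1045 and 901 (ratio 1.16).

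The aged/young ratio was higher for core genes with longer coding sequences. With 1 library per age, a difference between library preparations cannot be told apart from age here. Over the 77 core genes the Spearman correlation of ratio and coding length, taken from GENCODE M21, was 0.75, and that with the whole messenger's length was 0.36. All 77 points share the same 2 libraries and genes are not independent replicates, so no p is given, and the relation was looked for after values had been seen. The 9 genes with fewer than 300 coding bases had a median ratio of 0.838, and 8 of them lay below 1. The medians then were 0.943 for 16 genes of 300 to under 400 bases, 0.992 for 22 of 400 to under 500, 1.08 for 16 of 500 to under 700 and 1.14 for 14 of 700 or more. The exception at the short end was Rpl41, the shortest member with 75 coding bases, which had 2058 CPM in aged and 1944 in young cells (ratio 1.06, 1.05 to 1.06, and 0.980 under TMM scaling). At the long end 2 of the 14 lay below 1, Rpl6 (0.939) and Rplp0 (0.988). Without the genes under 300 bases the correlation was 0.69 over 68 genes.

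The same order appeared in fibroblasts, where the correlation was 0.77 and the medians ran from 0.806 for the shortest genes to 1.13 for the longest. It was 0.40 in macrophages and monocytes and 0.10 in neutrophils. In the gates with under 50 cells in a library it was 0.74 in endothelial, 0.65 in dendritic and 0.21 in T/NK cells. In clusters named from the markers it was 0.77 in fibroblasts, 0.20 in macrophages and monocytes and 0.54 in neutrophils. Of these cell types only fibroblasts had a like value under both groupings. In cells thinned to 2000 UMIs the correlation was 0.71 in fibroblasts, 0.13 in macrophages and monocytes, 0.14 in neutrophils and 0.48 over all cells. Genes outside the set had a correlation of 0.06 over all cells (13822 genes) and -0.06 in fibroblasts (12518 genes). In macrophages it was 0.35 over 9067 such genes, beside 0.40 for the core members, both without thinning. These genes cover another range of lengths: over all cells 11268 had 700 or more coding bases, beside 14 core genes. In the same classes of length their median ratios over all cells were 1.02, 1.05, 1.09, 1.096 and 1.098, from shortest to longest. In fibroblasts these medians were 1.04, 1.10, 1.11, 1.09 and 1.05.

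**Figure D3:**
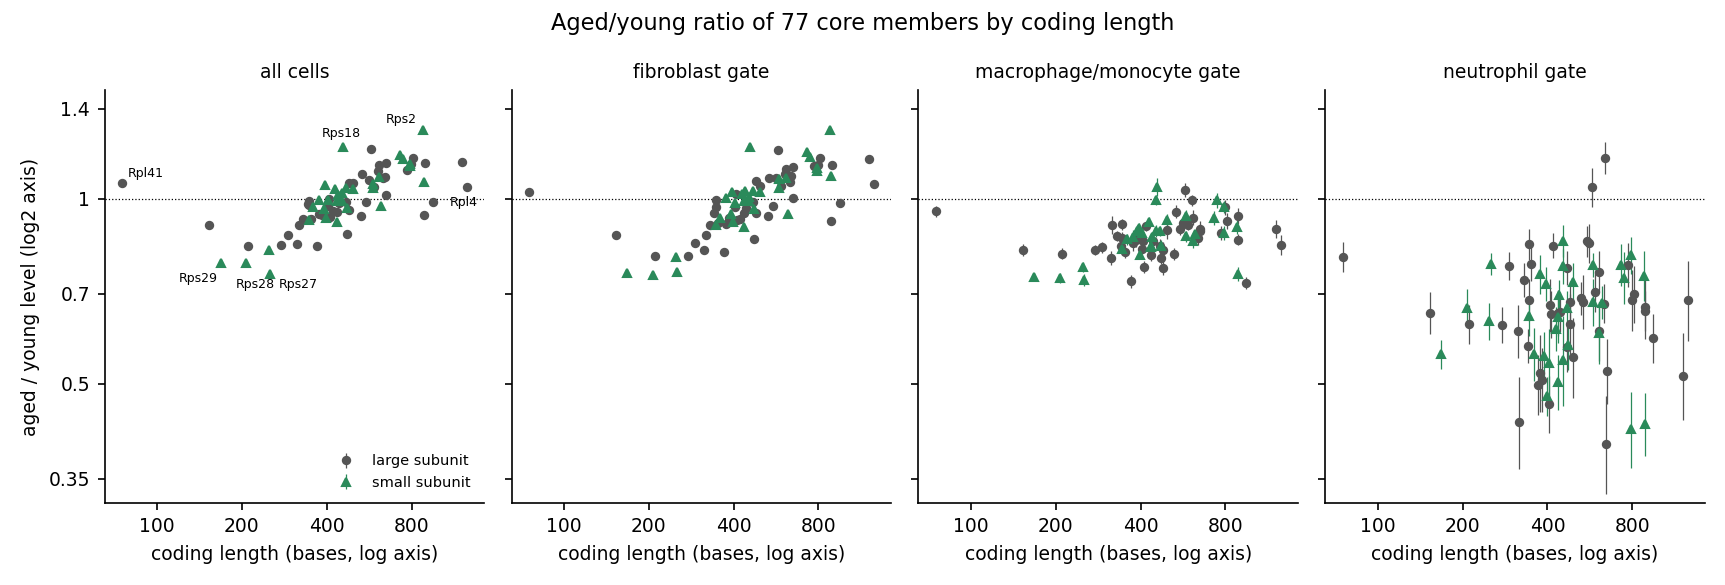
Aged/young ratio of each of the 77 core genes against its coding length (both axes logarithmic), over all cells and in 3 gates, with bars for the 95% counting interval. Over all cells and in fibroblasts most short genes lie below 1 and most long ones above, with Spearman correlations of 0.75 and 0.77; in neutrophils the points are scattered (0.10).

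Genes with and without the pyrimidine run overlapped in their ratios. The 13 core genes with the run had a median log2 ratio of -0.06 and the 44 core genes with a table entry but no run had 0.04. Rps27, Rps21, Rpl35 and Rpl38, with runs shown above, were among the lowest ratios, and Rps6 and Rps18, with runs of the same kind, among the highest.

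In the fibroblast gate 81 members had at least 100 UMIs. Past 1.5-fold 0 were higher and 0 lower in aged fibroblasts, where 7.55% and 5.23% of all 13965 genes were. At the smaller difference 1 was higher (19.5% of all genes) and 4 were lower (12.4%). The highest was Rps2, with 1932 CPM in aged and 1494 in young fibroblasts, a ratio of 1.29 (1.28 to 1.30). Rps18 (1.21), Rpl9 (1.20), Rps3 (1.19) and Rps6 (1.17) came next. The lowest were Rps28, with 1581 in aged and 2108 in young fibroblasts (ratio 0.750, 0.744 to 0.756), Rps29 (0.758), Rps27 (0.759), Rpl39l (0.763) and Rps21 (0.804).

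In macrophages and monocytes 77 of the 80 members with at least 100 UMIs had ratios below 1, where 24.5% of all genes did. The median log2 ratio was -0.21, beside 0.22 over all 9557 genes with UMIs in both libraries. Past 1.5-fold 0 were higher and 0 lower, where 13.4% and 2.89% of 9558 genes were. At the smaller difference 10 were lower (6.87% of all genes) and 0 higher (37.8%). The lowest was Rplp0, the anchor of the stalk, with 885 CPM in aged and 1213 in young macrophages, a ratio of 0.730 (0.713 to 0.747). Rpl22l1 (0.732), Rpl35 (0.734), Rps27 (0.737) and Rps28 (0.744) followed. The highest were Rps18, with 515 in aged and 493 in young macrophages (ratio 1.05, 1.01 to 1.08), Rpl9 (1.03), Rpl7l1 (1.02), Rps14 (0.995) and Rps6 (0.994), all of which lay below 1 under TMM scaling. Under TMM scaling, which shifts all log2 ratios in this gate by -0.21, 7 members were lower by 1.5-fold, where 5.9% of all genes were, and 0 higher, where 5.61% were.

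In neutrophils 39 of the 81 members with at least 100 UMIs were lower by 1.5-fold in aged cells and 0 were higher, where 9.74% and 17.8% of 6128 genes were. The count changed with the choice of cells. Without the 25% of cells with the most UMIs 4 members were lower, where 6.75% of 4382 genes were, and in clusters named from the markers 0 were, where 6.08% of 6230 genes were. None was higher by 1.5-fold in either setting, where 22.2% and 23.2% of genes were. Under TMM scaling, which shifts log2 ratios here by -0.19, 60 were lower, where 14.1% of genes were, and 0 higher, where 9.61% were. The lowest ratio was that of Rpl10a, with 31.9 CPM in aged and 79.9 in young neutrophils (0.399, 0.331 to 0.477). Leaving out the 10 cells with the most Rpl10a UMIs in each library brought it to 0.820, and in clusters it was 1.29. Rps4x (0.422), Rpsa (0.430), Rpl36a (0.433) and Rpl32 (0.463) stood next, at 0.510, 0.625, 0.680 and 0.632 without the 10 richest cells. The members highest in aged neutrophils were Rpl7l1 (1.402, 1.10 to 1.78), Rpl3l (1.32, 0.876 to 1.97, and 0.925 without the 10 richest cells), Rpl10 (1.17, 1.10 to 1.24), Rpl9 (1.04, and 0.914 under TMM scaling) and Rpl22l1 (0.886).

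While the size of the neutrophil share depended on the cells chosen, its make-up stood apart in both libraries. Taking each gene as a percentage of the ribosomal protein UMIs of its gate, the core genes differed little between the 6 gates: the median coefficient of variation was 18.2% in the aged and 15.2% in the young library. Rps27 varied most, with a mean coefficient of 74.2%, followed by Rps9 (50.9%), Rpsa (38.0%), Rpl10a (34.8%) and Rpl12 (34.0%). Rpl27a, at 3.83%, varied least.

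Rps27 made up 4.78% of ribosomal protein UMIs in aged and 4.25% in young neutrophils. In the other 5 gates it made up between 0.855% and 1.31% in the aged and between 1.11% and 1.68% in the young library. Rps9, known from yeast to bear on the accuracy of decoding, made up 3.78% in aged and 3.38% in young neutrophils. Across the other 5 gates it made up between 1.12% and 2.02% in the aged and between 1.01% and 1.68% in the young library. Both were highest in neutrophils in each library. In absolute terms Rps27 stood at 733 CPM in aged and 935 in young neutrophils, and at 1063 and 1402 in fibroblasts, so its level was lower in neutrophils, by less than that of any other core member.

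Rpsa, which is also known as a laminin receptor, made up 0.492% in aged and 0.797% in young neutrophils, and 1.61% and 1.45% in fibroblasts. Rpl10a made up 0.208% in aged and 0.363% in young neutrophils, and 1.15% and 0.9997% in fibroblasts. Rpl12, at the base of the stalk, made up 0.321% and 0.405% in neutrophils, and 1.09% and 1.02% in fibroblasts. All 3 were lowest in neutrophils in each library. Next lowest were macrophages and monocytes, with 0.910% in aged and 1.03% in young cells for Rpsa. There Rpl10a made up 0.712% and 0.685%, and Rpl12 0.641% and 0.618%. In clusters named from the markers the neutrophil values were 4.41% in aged and 5.28% in young cells for Rps27, and 3.21% and 3.83% for Rps9. Without the 25% of cells with the most UMIs they were 5.15% and 5.38% for Rps27, and 4.13% and 4.11% for Rps9.

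**Figure D4:**
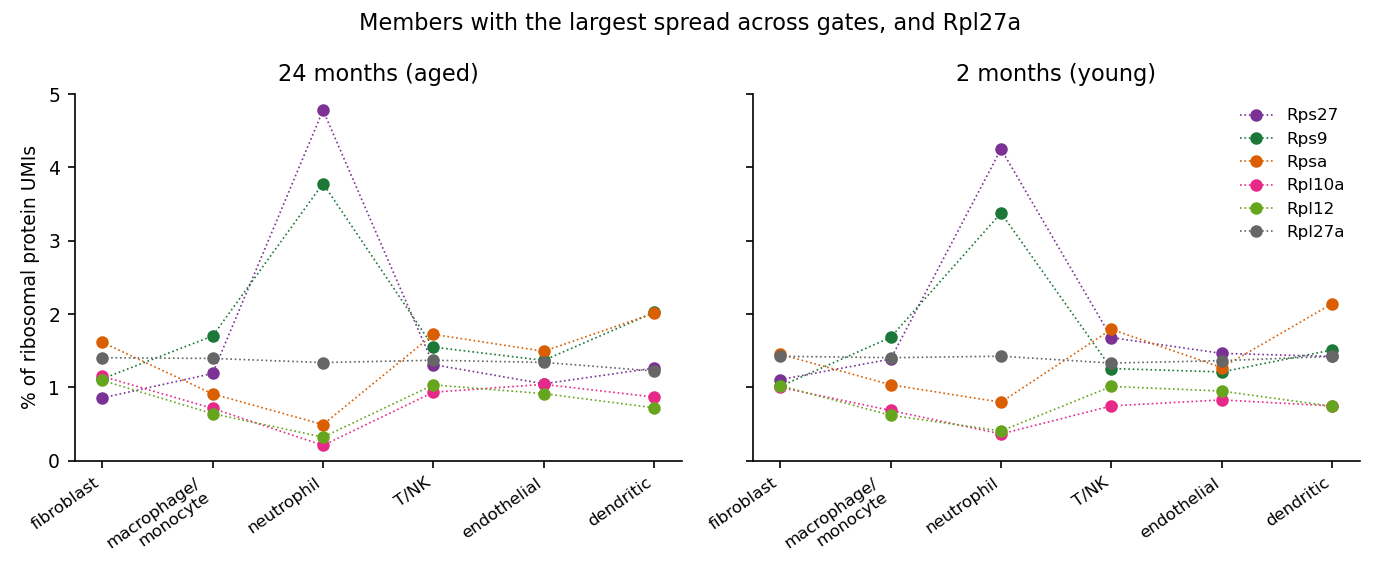
Percentage of ribosomal protein UMIs from the 5 core genes that varied most between gates and from Rpl27a, which varied least, in the aged library (left) and the young library (right). Rps27 and Rps9 are highest in neutrophils in both libraries (4.78% and 4.25% for Rps27), where Rpsa, Rpl10a and Rpl12 are lowest; dotted lines only join the points of a gene.

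The stalk proteins stood close to 1 over all cells, at 0.988 for Rplp0, 0.979 for Rplp1 and 0.978 for Rplp2. In macrophages Rplp1 (0.838) and Rplp2 (0.864) were lower in aged cells by less than Rplp0. Rpl5 and Rpl11, which with 5S ribosomal RNA can bind Mdm2 and so reach p53, were among the members higher in aged cells, and stood at 1.06 and 1.02 under TMM scaling. Rpl5 had 1099 CPM in aged and 961 in young cells (ratio 1.14, 1.13 to 1.15), and Rpl11 had 1309 and 1192 (ratio 1.10, 1.09 to 1.11). In macrophages their ratios were 0.938 and 0.952, above the module's 0.858. In neutrophils both were lower in aged cells, at 0.585 and 0.596 under TMM scaling, where the module's share ratio was 0.611.

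Rps27l, a paralog of Rps27 whose gene is a target of p53, was held beside its partner at 21.3 UMIs per 100 of Rps27 in aged cells (21.03 to 21.6) and 15.5 in young cells (15.3 to 15.7). The level of Rps27l itself was 228 CPM in aged and 221 in young cells, and that of Rps27 was 1072 and 1420. It was 22.3 in aged and 17.1 in young fibroblasts, and 20.99 and 16.0 in macrophages and monocytes. In neutrophils it was 3.73 in aged (3.08 to 4.47) and 4.26 in young cells (3.85 to 4.69), intervals that overlap. The aged/young quotient of these neutrophil values was 0.876 in the gate and 1.459 in clusters named from the markers. The endothelial gate gave 16.9 and 11.1, the T/NK gate 8.62 and 4.34 and the dendritic gate 26.6 and 21.1. Neutrophils, and T/NK cells of the young library, held the fewest Rps27l per Rps27.

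Rpl22l1, which in mice can take the place of Rpl22 in the ribosome, reached the highest paralog level. It stood at 56.5 UMIs per 100 of Rpl22 in aged (55.9 to 57.2) and 52.7 in young cells (52.1 to 53.3). In fibroblasts it was 66.5 in aged and 62.7 in young cells, and in macrophages and monocytes 22.2 and 25.97. The order of the ages was opposite in these gates, a difference that was not tested. In neutrophils it was 52.1 (43.1 to 62.7) and 29.8 (26.9 to 33.0), from 176 aged and 479 young UMIs. Fibroblasts held 83.1% of the aged and 76.7% of the young library's Rpl22l1 UMIs. Of Rpl22 they held 61384 of 86911 aged and 61543 of 95368 young UMIs.

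Rpl39l, a paralog of Rpl39 known from the male germ line of mice, came mostly from fibroblasts, which held 87.1% of its UMIs in the aged and 86.9% in the young library. Of Rpl39 itself fibroblasts held 131258 of 172204 aged and 140206 of 196421 young UMIs. Its level was 38.1 CPM in aged and 50.01 in young fibroblasts, and 1.34 and 1.99 in macrophages and monocytes. Per 100 of Rpl39 it stood at 2.11 in aged (2.03 to 2.19) and 2.42 in young fibroblasts (2.34 to 2.51). The dendritic gate held 0 UMIs in either library, which allows up to 0.317 and 0.483 per 100 of Rpl39.

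Rpl7l1, a protein of the precursors of the large subunit, stood at 4.36 per 100 of Rpl7 in aged and 4.48 in young cells, with overlapping intervals. In neutrophils it was 25.3 in aged (20.4 to 31.3) and 12.6 in young cells (10.8 to 14.7), from 111 and 191 UMIs. Rpl3l, the muscle paralog of Rpl3, had 74 UMIs in the aged and 123 in the young library. Of these, 40 aged and 73 young UMIs were in neutrophils, spread over 32 and 67 cells. That is 9.10 CPM in aged and 6.89 in young neutrophils, against 0.083 and 0.250 in fibroblasts. The skeletal muscle gate, with 2 aged and 6 young cells, held 2 and 3. No annotated gene overlapped Rpl3l.

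**Figure D5:**
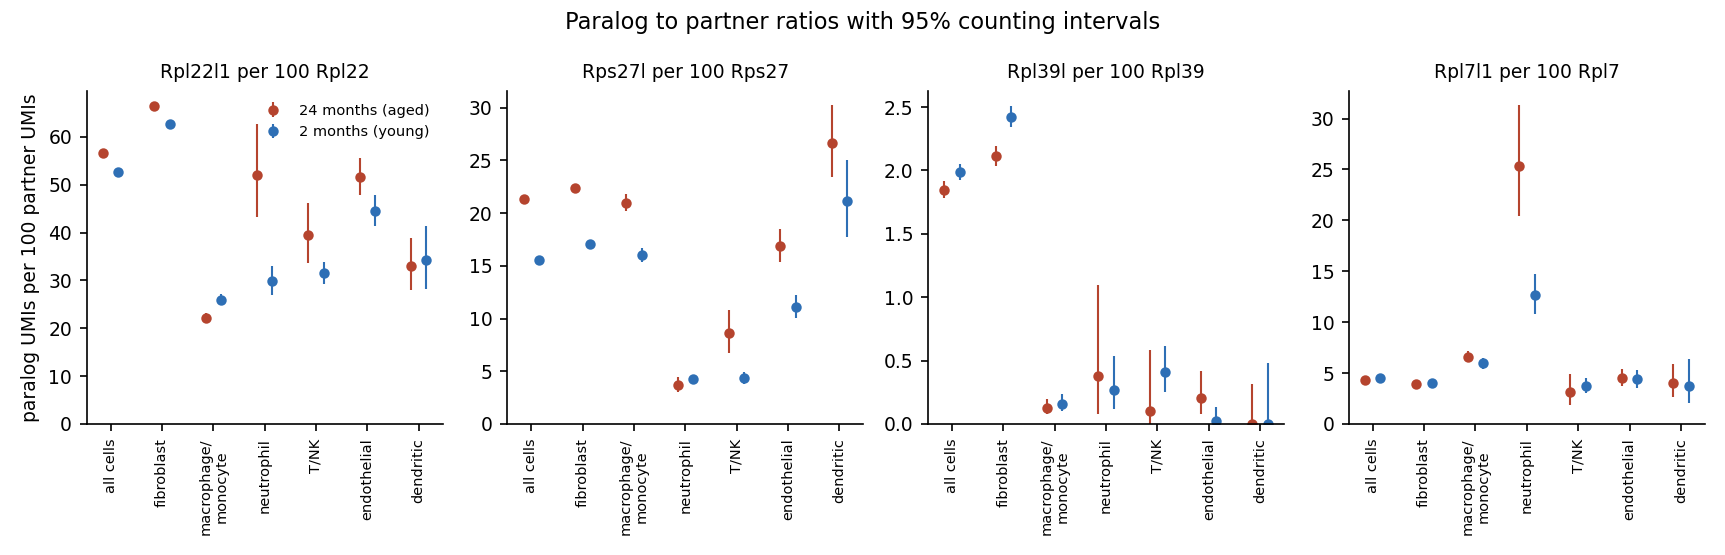
UMIs of 4 paralogs per 100 UMIs of their partner genes, over all cells and by gate, in aged (left of each pair) and young cells, with 95% counting intervals. Rps27l lies at 21.3 in aged and 15.5 in young cells, and Rpl39l is near 2 in fibroblasts and under 0.5 in the other gates.

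Cells with a UMI of Cdkn1a, the cell-cycle inhibitor used to mark senescent cells, held a ribosomal share close to that of other cells of their gate. After thinning every cell to 2000 UMIs it was 12.7% with and 12.3% without Cdkn1a in aged fibroblasts, and 12.8% and 12.6% in young fibroblasts. In macrophages and monocytes it was 8.34% with and 8.76% without in aged cells, and 9.84% and 10.2% in young cells. Neutrophils had 1.56% and 1.41% in the aged, and 1.90% and 1.86% in the young library. Over all cells it was 7.65% with and 10.2% without Cdkn1a in the aged, and 8.02% and 10.8% in the young library. The gates make up the cells with Cdkn1a in other proportions: 581 of 2404 aged and 902 of 2559 young ones were neutrophils.

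Lists of other genes of translation were read beside the members over all cells. Of 19 genes outside the set with a terminal oligopyrimidine messenger, 0 were higher by 1.5-fold in aged cells. Fau stood at 2282 CPM in aged and 2511 in young cells (ratio 0.909). The elongation factor subunits Eef1g (1.28) and Eef1d (1.27) were the highest of the list, whose median log2 ratio was 0.09.

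Of 26 ribosome biogenesis genes 0 were past 1.5-fold, and their median log2 ratio was 0.24. Polr1b (1.47) and Polr1a (1.39), subunits of the polymerase that makes ribosomal RNA, were the highest, and Nop10 (0.962) and Ncl (1.05) the lowest. Among 78 mitochondrial ribosomal protein genes 0 were past 1.5-fold either way, with a median log2 ratio of 0.20. Their ratios ran from Mrpl38 (0.831) and Mrpl52 (0.863) to Mrpl18 (1.32) and Mrps10 (1.34). Their correlation with coding length was 0.06 over all cells and 0.06 in fibroblasts. It was 0.33 in macrophages and monocytes, and 0.41 in neutrophils over 32 genes, beside 0.40 and 0.10 for the core members. Of 16 genes in the control of translation 0 were higher and 1 lower by 1.5-fold: Ddit4, an inhibitor of mTORC1, at 0.630. Rictor (0.873) came next, and Rptor (1.35) and Sesn2 (1.254) were the highest. Among 15 transcripts read as signs of RNA quality, mt-Atp8 (0.622) and mt-Nd3 (0.677) were the lowest and mt-Nd1 (0.934) and Neat1 (0.940) the highest. Mitochondrial UMIs made up 1.09% in aged and 1.31% in young cells, and the part of RNA quality in the members' ratios was not tested.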

How the data were processed

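Dorsal wound cells were profiled by 10x Genomics 3' single-cell RNA sequencing, with 1 library of pooled mice per age. The labels name the kit as version 3 and as version 3.1. The authors deposited raw UMI counts per gene and barcode; their software is Cell Ranger 8.0.1 according to the matrix files. Cell Ranger 9.0, STAR, Seurat 4 and the build GRCm38/mm10 stand in the submitters' processing notes, and the annotation behind the counts is not given in the sources used here. Coordinates come only from RefSeq's GRCm38.p6 start sites.

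Cells with at least 500 UMIs, at least 200 genes and under 15% mitochondrial UMIs were kept. A doublet caller (Scrublet in scanpy 1.11.5) called 2 aged and 3 young cells, which is too few to have worked, so doublets were kept in the main values and the 4% of cells with the highest scores were left out as an alternative. A cell entered a gate when the mean over its list of each marker (capped at the 90th percentile of cells that have it, and divided by that) was at least 0.1, at least 2 times that of the next list, and at least 3 markers were detected. Leiden clusters (2000 variable genes, 30 components, 15 neighbours, resolution 1), made without the members, were the alternative to gates.

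Counts were summed per library and gate and given as CPM (UMIs per 1000000 UMIs of the same cells), with exact Poisson intervals for levels, exact binomial intervals for shares and exact conditional intervals for aged/young ratios. Gates with under 50 cells in a library got no ratio of age, apart from the correlation of such ratios with coding length. A member was read against a fold of 1.5 where it had at least 100 UMIs. TMM factors came from edgeR 4.0.16. The ratios and their intervals were tested on simulated Poisson counts, drawn for each gene from pooled sums. That simulation held no differences between cells or mice, so it bears on counting error only. Thinning to 2000 UMIs per cell left out 291 aged and 236 young cells. The authors' number of mice per pool is not given in the sources used here.

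The members, the gene lists and the alternatives were chosen with earlier results of these data known. Genes named were the 5 highest and 5 lowest by level over all cells and by aged/young ratio in each set of cells, the 5 most variable across gates, every paralog, the stalk proteins, Rpl5 and Rpl11, and the 2 highest and 2 lowest of each other list. Rpl38, Rpl35, Rpl37a, Rpl41, Rpl27a, Rpl6 and Rps6 over all cells, and Fau, were named after their values were seen. Some genes that this rule names are not reported here.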

Additional observations from a re-analysis of the deposited data

Results flagged for a closer look

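Of 80 members with at least 100 UMIs in both gates, 35 had aged/young ratios above 1 in fibroblasts and below 1 in neutrophils, and 0 the other way round. The same count over all genes was not made. In neutrophils 77 of the 81 members measured lay below 1, so few could go the other way. Rps2 is given because its ratio was at least 25% above 1 in fibroblasts and at least 20% below 1 in neutrophils. Its ratio was 1.293 in fibroblasts, with 1932 CPM in aged and 1494 in young cells, and 0.7484 in neutrophils, with 132 in aged and 176 in young cells. The ratio of the whole ribosomal share in neutrophils was 0.696 in the gate and 0.961 in clusters named from the markers. The neutrophil value of Rps2 came from 578 aged and 1863 young UMIs. The difference between the gates was not tested.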

How the results depend on the processing

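No paired analysis was possible because each age has 1 library and no test across samples was made. The pooled ribosomal share ratio over all cells (0.992) was 0.9106 by the median over cells, 0.9896 without mitochondrial UMIs, 0.962 without the 50 most abundant other genes, 0.9878 without the 4 members with a pseudogene entry, 0.9936 in all deposited barcodes, 0.9408 in thinned cells and 0.9906 without the highest doublet scores. In fibroblasts (0.980) these settings gave 0.9561 by the median, 0.9773 without mitochondrial UMIs, 0.9592 without the abundant genes, 0.9752 without the pseudogene members, 0.9836 thinned, 0.9811 in clusters, 0.9673 in a stricter gate and 0.9683 without the deepest 25% of cells. In macrophages and monocytes (0.858) they gave 0.832 by the median, 0.8331 without the abundant genes, 0.8557 without the pseudogene members, 0.8503 thinned, 0.762 in clusters, 0.8618 in a stricter gate and 0.8417 without the deepest 25% of cells. In neutrophils (0.696) they gave 0.8673 by the median, 0.6392 without the abundant genes, 0.683 without the pseudogene members, 0.7168 with a stricter cell filter, 0.806 thinned, 0.961 in clusters, 0.773 in a stricter gate, 0.7025 without the highest doublet scores and 0.8561 without the deepest 25% of cells. Each of these ratios was below 1.

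At 25% more or 20% less the counts of members higher and lower were 1 and 4 over all cells, 1 and 4 in fibroblasts, 0 and 10 in macrophages and 2 and 69 in neutrophils. In the same order, 22.3% and 13.2%, 19.5% and 12.4%, 37.8% and 6.87%, and 36.8% and 16.9% of all genes were higher and lower. Without a minimum on UMIs 1 more was lower in fibroblasts and 1 higher in macrophages. TMM scaling gave 7 lower in macrophages and 60 in neutrophils, where 5.9% and 14.1% of all genes were. Clusters gave 4 lower in macrophages and 0 in neutrophils, where 6.08% of all genes were lower in neutrophils. Scaling to equal member totals gave 3 higher and 5 lower in neutrophils. Leaving out the deepest 25% gave 4 lower there, where 6.75% of all genes were. For the counts without a UMI minimum, with equal member totals and in macrophage clusters, the share over all genes was not computed. The aged/young quotient of Rps27l per Rps27 (1.37 over all cells) was 1.542 over all cells, 1.393 in fibroblasts and 1.416 in macrophages when thinned, and 1.181 in macrophages and 1.459 in neutrophils in clusters, against 0.876 in gated neutrophils. That of Rpl22l1 per Rpl22 was 1.134 in thinned fibroblasts and 1.29 in clustered neutrophils. That of Rpl7l1 per Rpl7 was 0.8496 in thinned fibroblasts and 1.416 in clustered neutrophils, against 2.005 in gated ones. In clusters the neutrophil ratios of Rpl10a (1.293) and Rpl36a (1.006) turned to the other side of 1. The cause of these changes was not tested. Among neutrophils the rarest core member, Rpl10a, had 140 UMIs in the aged library. The choice of cells moved its ratio past its counting interval of 0.331 to 0.477: to 0.820 without the 10 richest cells and to 1.293 in clusters.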
